A study of Danio rerio with 4 samples.

Results

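The effect of a foxo3b morpholino on transcript levels was set side by side at 2 stages of zebrafish development, 24 and 48 hours post fertilization (hpf). For each gene the log2 fold of foxo3b morpholino (foxo3b MO) over control was computed at each stage, with 1 FPKM added to both values, and the fold at 24 hpf was subtracted from the fold at 48 hpf. This value is called the stage difference: it is above 0 where the fold stood higher at 48 hpf and below 0 where it stood higher at 24 hpf. Genes were kept when their mean FPKM was 5 or more and no library listed them at 0. They numbered 9302 of the 14417 genes in the files. A further 5083 genes lay under the floor of 5 FPKM, and 32 genes reached it but were listed at 0 in at least 1 library.

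The cells were sorted as Gata1+ from embryos of the gata1:GFP strain, in which green fluorescent protein marks cells that use the gata1 promoter. The groups were foxo3b MO at 24 hpf, control at 24 hpf, foxo3b MO at 48 hpf and control at 48 hpf, with 1 library each. Morpholinos, the standard one in the controls, were injected into embryos at the single-cell stage, and every group carried the reporter. With 1 library per group there is no spread between replicates and no test could be run, so every difference below is a description of 4 libraries.

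Morpholinos are antisense oligonucleotides that block the translation or splicing of a chosen transcript, and they act while enough of the injected oligonucleotide remains in the dividing cells of the embryo. FOXO proteins are transcription factors held out of the nucleus by insulin and growth factor signalling, and their known targets act in stress resistance, cell cycle arrest and cell death. Gata1 is the transcription factor of red cell and thrombocyte precursors. Between the stages studied the first red cells of the zebrafish enter the circulation and fill with embryonic globin.

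Total FPKM stood at 1576674 in foxo3b MO and 2288669 in control at 24 hpf, and at 1505447 in foxo3b MO and 2402299 in control at 48 hpf. The files hold no counts, and the depth of each library is unknown. Cytosolic ribosomal protein genes made up 45.1% of the total in foxo3b MO and 56.6% in control at 24 hpf, and 31.9% in foxo3b MO and 44.7% in control at 48 hpf. The shares at 48 hpf lean on 1 gene, zgc:77235, now called rpl27a. At that stage it held 47268 FPKM in foxo3b MO and 307548 FPKM in control. The red cell label of the sort was checked against its markers. The 8 embryonic globin genes made up 0.288% of total FPKM in foxo3b MO and 0.809% in control at 24 hpf, and 0.947% in foxo3b MO and 1.47% in control at 48 hpf, while gata1a lay between 2.49 and 8.23 FPKM. Some markers of other tissues were abundant in all 4 libraries. The liver and yolk gene fabp1b.1 lay between 39376 and 187400 FPKM. In each library it exceeded the sum of the 8 embryonic globin genes, which ran from 4545 to 35230 FPKM. The epidermal keratin gene krt4 lay between 8263 and 10879 FPKM and the hatching gland protease gene he1b between 1334 and 4864 FPKM. The muscle gene pvalb2 ran from 281 FPKM in foxo3b MO at 24 hpf to 15493 FPKM in control at 48 hpf. Others were less abundant: the myeloid genes lyz and mpx lay between 5.75 and 382 FPKM and between 5.50 and 34.1 FPKM. The insulin gene ins lay between 10.7 and 62.7 FPKM. In bulk RNA of this kind, fewer cells of a type and less of its RNA per cell cannot be told apart.

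Most genes had small folds at both stages: 91.3% were within 2-fold of control at 24 and at 48 hpf. The stage difference had a median of -0.16, with quartiles at -0.52 and 0.19 and an SD over genes of 0.66, and 62.4% of genes lay within 0.5 of 0. The median fold of all genes was 0.18 at 24 hpf and 0.01 at 48 hpf. The SD of the folds over genes was 0.50 at 24 hpf and 0.52 at 48 hpf, smaller than that of the stage difference. Across the 9302 genes the folds at the 2 stages, which share no library, had a Pearson correlation of 0.16 and a Spearman correlation of 0.15. That value describes genes within 1 pair of libraries per stage, and genes are not independent replicates.

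A stage difference of 1 or more was found in 261 genes (2.81% of all tested) and of -1 or less in 669 genes (7.19%). This split depends on the scale of the libraries: scaling each library by the median of its gene ratios moved the median stage difference to 0.07 and gave 508 genes at 1 or more and 369 at -1 or less, and scaling to equal total FPKM gave 387 and 447. Values below are on the deposited scale, so a list is best read against the median of all genes. Likewise, counts of list members at 1 or more or at -1 or less are to be read against 2.81% and 7.19% of all genes. At 24 hpf foxo3b MO stood at least 2-fold higher in 286 genes (3.07%) and 2-fold or more lower in 198 (2.13%). At 48 hpf it stood at least 2-fold higher in 164 genes (1.76%) and 2-fold or more lower in 240 (2.58%). Counts of list members past 2-fold at a stage are to be read against these shares of all genes. Of the 484 genes past 2-fold at 24 hpf and the 404 past it at 48 hpf, 56 were past it on the same side at both, which is 11.6% of the first set and 13.9% of the second. Another 23 were past 2-fold on opposite sides, 405 only at 24 hpf and 325 only at 48 hpf.

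**Figure D1:**
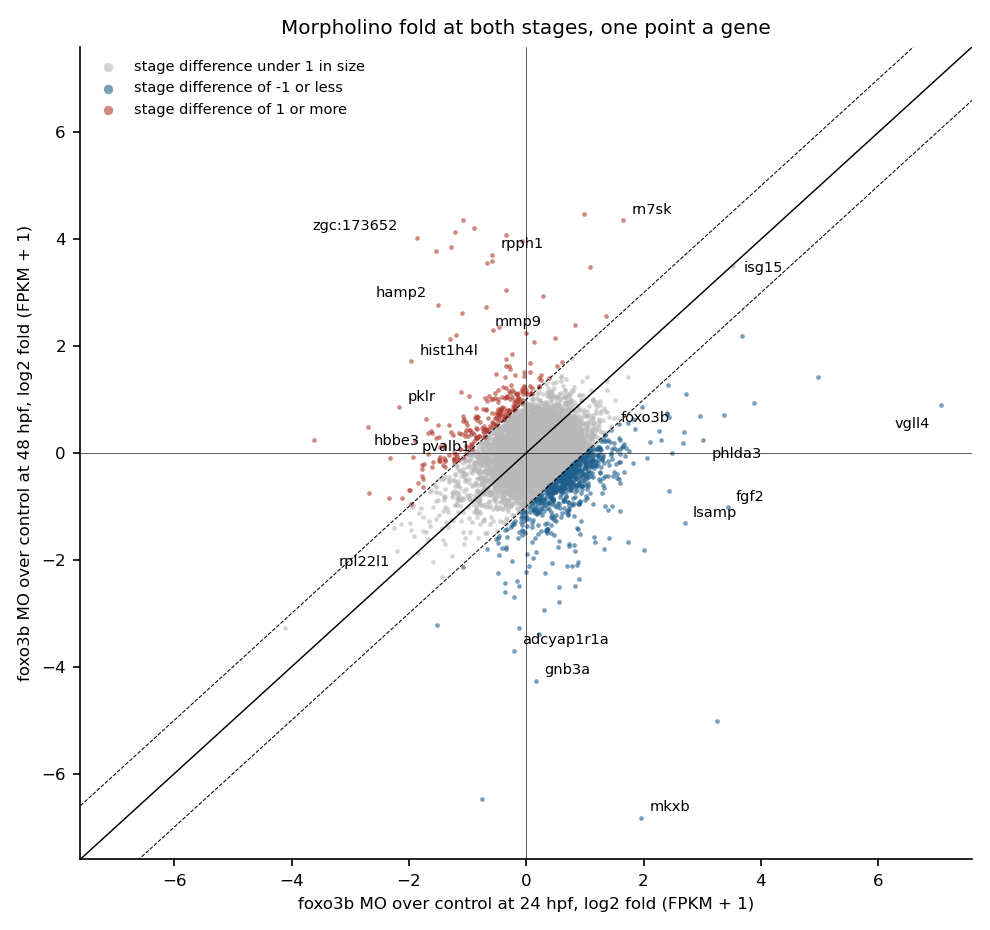
Log2 fold of foxo3b MO over control at 24 hpf (horizontal) and 48 hpf (vertical), with 1 FPKM added, for 9302 genes. The solid line marks equal folds and the dashed lines a stage difference of 1 in size: 261 genes lie above the upper one (red) and 669 below the lower one (blue), with vgll4 far to the right and mkxb far down.

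The gene targeted by the morpholino lay at the low end. The foxo3b transcript had 46.5 FPKM in foxo3b MO and 6.40 FPKM in control at 24 hpf, and 50.3 FPKM in foxo3b MO and 38.1 FPKM in control at 48 hpf. The control library at 24 hpf held far less of it than any of the other 3, and foxo3b MO was the higher library at both stages, with log2 folds of 2.68 at 24 hpf and 0.39 at 48 hpf and a stage difference of -2.29. The gene lies on chromosome 20, 32325663 to 32371617 of the Zv9 assembly. A transcript level does not show how far a morpholino lowered the protein. The paralog foxo3a differed little between libraries, at 10.7 FPKM in foxo3b MO and 8.90 FPKM in control at 24 hpf, and 10.5 FPKM in foxo3b MO and 12.1 FPKM in control at 48 hpf, and had a stage difference of -0.43.

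Genes of the damage response, which halt the cell cycle, repair DNA or start cell death, held several of the lowest stage differences. Of 30 measured members 8 had a stage difference of -1 or less and none had 1 or more, while the median of the whole list was -0.25, near the -0.16 of all genes. Under the scalings and filters tried this median ran from -0.45 to -0.03. At 24 hpf 9 of the 30 were at least 2-fold higher in foxo3b MO, at 48 hpf 1 was, and none was 2-fold lower at either stage. Of all genes 3.07% were higher at 24 hpf and 1.76% at 48 hpf, and 2.13% and 2.58% were lower. Beside these shares, the count at 48 hpf and the lack of lower members do not set the list apart. The list counts foxo3b among its members. A further member, the cell death gene pmaip1, was left out of the 30 because it was listed at 0 in 3 libraries and at 285 FPKM in foxo3b MO at 24 hpf.

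Within it, phlda3, whose product restrains Akt signalling, had 63.5 FPKM in foxo3b MO and 6.94 FPKM in control at 24 hpf, and 13.0 FPKM in foxo3b MO and 10.8 FPKM in control at 48 hpf. The gene casp8, which encodes the initiator caspase of death receptors, had 56.4 FPKM in foxo3b MO and 4.56 FPKM in control at 24 hpf, and 9.87 FPKM in foxo3b MO and 5.63 FPKM in control at 48 hpf. In both genes the foxo3b MO library at 24 hpf stood alone and the other 3 held at most 13.0 FPKM. The stage difference was -2.77 for phlda3 and -2.65 for casp8. The ubiquitin ligase gene mdm2 had 159 FPKM in foxo3b MO and 28.6 FPKM in control at 24 hpf, and 52.2 FPKM in foxo3b MO and 32.5 FPKM in control at 48 hpf, a stage difference of -1.77. The cyclin G1 gene ccng1 kept a fold past 2-fold at both stages, with 2311 FPKM in foxo3b MO and 348 FPKM in control at 24 hpf, and 1433 FPKM in foxo3b MO and 666 FPKM in control at 48 hpf. Its log2 fold was 2.73 at 24 hpf and 1.11 at 48 hpf. The arrest gene gadd45aa had 20.4 FPKM in foxo3b MO and 3.93 FPKM in control at 24 hpf, and 13.3 FPKM in foxo3b MO and 11.4 FPKM in control at 48 hpf, low in the control at 24 hpf rather than high in foxo3b MO, with a stage difference of -1.91. The sestrin gene sesn3, whose product restrains mTOR signalling, had 49.9 FPKM in foxo3b MO and 15.7 FPKM in control at 24 hpf, and 14.4 FPKM in foxo3b MO and 13.6 FPKM in control at 48 hpf, high in foxo3b MO at 24 hpf alone, with a stage difference of -1.53. Other members did not share this pattern: ddb2, a damage recognition gene, had 18.5 FPKM in foxo3b MO and 19.6 FPKM in control at 24 hpf, and 23.7 FPKM in foxo3b MO and 20.9 FPKM in control at 48 hpf. The cyclin G2 gene ccng2 had the highest stage difference of the list, 0.70, with 15.9 FPKM in foxo3b MO and 24.1 FPKM in control at 24 hpf, and 109.9 FPKM in foxo3b MO and 101 FPKM in control at 48 hpf.

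Outside the lists, the same library stood alone in vgll4 and fsta. The gene vgll4, which encodes a cofactor of TEAD transcription factors, had 2565 FPKM in foxo3b MO and 18.1 FPKM in control at 24 hpf, and 32.9 FPKM in foxo3b MO and 17.2 FPKM in control at 48 hpf. It lies on chromosome 11, 759592 to 799041, and its stage difference of -6.18 was the second lowest among genes with a plain symbol, after that of mkxb. The gene fsta, which encodes the activin antagonist follistatin, had 99.9 FPKM in foxo3b MO and 14.9 FPKM in control at 24 hpf, and 28.2 FPKM in foxo3b MO and 24.6 FPKM in control at 48 hpf, a stage difference of -2.48.

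In other genes at the low end a control library stood apart. The lowest value of all was that of mkxb, a homeobox gene on the unplaced scaffold Zv9_NA916, at -8.79. It had 22.99 FPKM in foxo3b MO and 5.16 FPKM in control at 24 hpf, and 1.62 FPKM in foxo3b MO and 296 FPKM in control at 48 hpf, so that the control library at 48 hpf was the high one and foxo3b MO at 48 hpf the lowest. The PACAP receptor gene adcyap1r1a had 2.37 FPKM in foxo3b MO and 2.89 FPKM in control at 24 hpf, and 7.0 FPKM in foxo3b MO and 103 FPKM in control at 48 hpf, a stage difference of -3.49. The fin fold gene and4 had 57.9 FPKM in foxo3b MO and 35.3 FPKM in control at 24 hpf, and 459 FPKM in foxo3b MO and 1980.5 FPKM in control at 48 hpf, a stage difference of -2.80. Both were likewise highest in the control at 48 hpf. The neural adhesion gene lsamp, also on an unplaced scaffold, had its lowest value in the control at 24 hpf instead, with 204 FPKM in foxo3b MO and 30.5 FPKM in control at 24 hpf, and 218 FPKM in foxo3b MO and 541 FPKM in control at 48 hpf. Its stage difference was -4.01. The growth factor gene fgf2, at -4.45, was likewise lowest in the control at 24 hpf, but its locus in the files is shared by 15 genes and its FPKM is uncertain.

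Over all 669 genes at -1 or less, the library farthest from its nearest neighbour was the low control at 24 hpf in 239, the high control at 48 hpf in 218, the high foxo3b MO at 24 hpf in 153 and the low foxo3b MO at 48 hpf in 59. Among the 261 genes at 1 or more it was the low foxo3b MO at 24 hpf in 92, the high foxo3b MO at 48 hpf in 76, the low control at 48 hpf in 71 and the high control at 24 hpf in 22. The sign of the stage difference limits each end to these 4 cases. The shares of all genes given next are spread over the cases of both ends, so they have another base. A share of an end above or level with that of all genes therefore does not show that the case was more common at that end. Over all 9302 genes the library apart was the low control at 24 hpf in 18.1%, the high control at 48 hpf in 13.5%, the high foxo3b MO at 24 hpf in 22.1% and the low foxo3b MO at 48 hpf in 8.75%, against 35.7%, 32.6%, 22.9% and 8.82% of the low end in the same order. For the cases of the high end, the low foxo3b MO at 24 hpf made up 8.50% of all genes, the high foxo3b MO at 48 hpf 9.64%, the low control at 48 hpf 13.7% and the high control at 24 hpf 5.68%, against 35.2%, 29.1%, 27.2% and 8.43% of the high end.

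**Figure D2:**
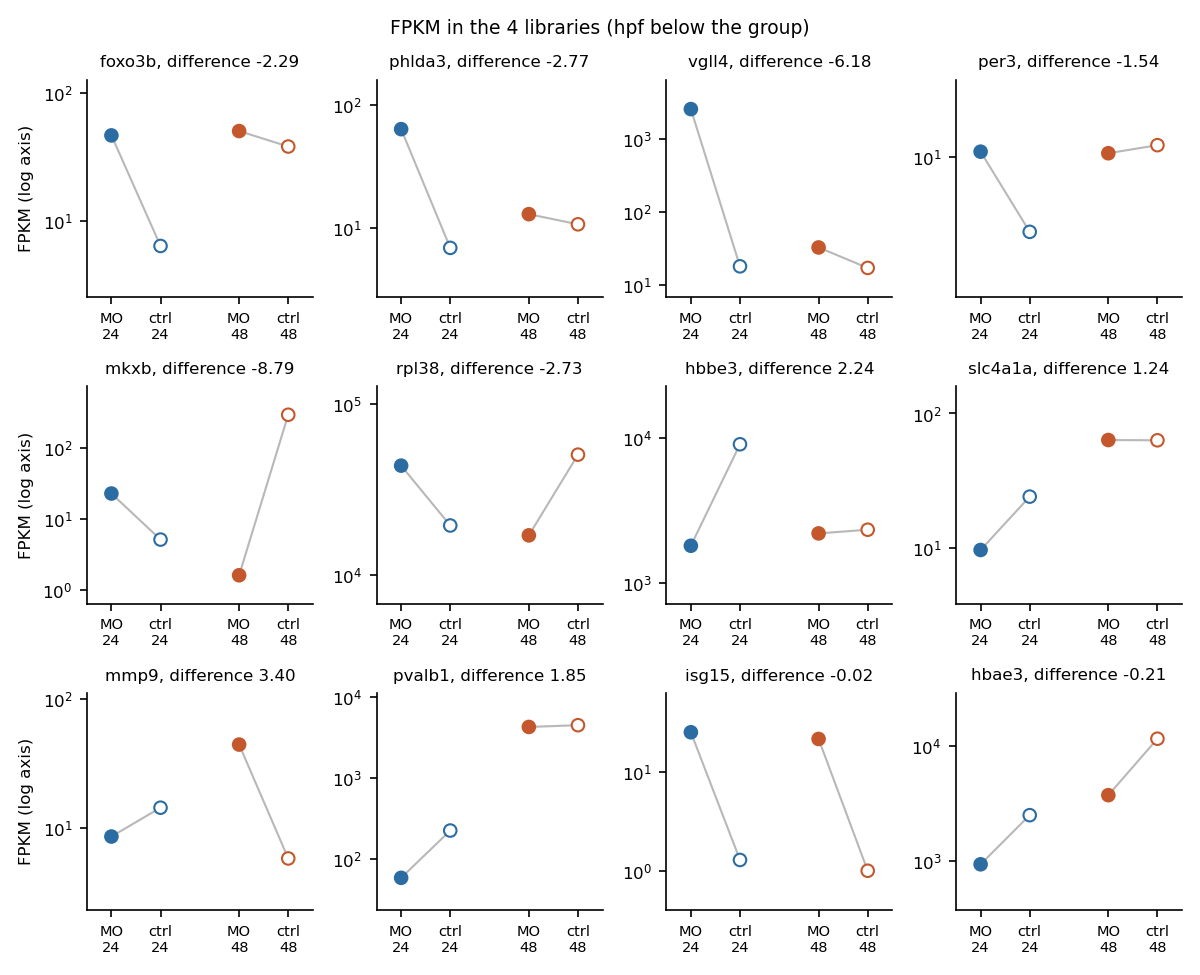
FPKM on a log axis in each of the 4 libraries for 12 genes, foxo3b MO (filled) left of control (open) at 24 hpf (blue) and 48 hpf (orange), with the stage difference in each title. In foxo3b, phlda3 and vgll4 the lines slope at 24 hpf and are flatter at 48 hpf, in hbbe3 and slc4a1a the slope at 24 hpf runs the other way, and in isg15 and hbae3 both slopes are alike.

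Clock genes, which run the daily transcription cycle through the activators Clock and Arntl and the repressors Per and Cry, had the lowest median stage difference of the 41 lists with at least 4 measured genes. The median was -0.72 over 22 genes, with median folds of 0.33 at 24 hpf and -0.24 at 48 hpf, and 21 of the 22 values were below 0. None reached 1 and 6 were at -1 or less. Folds at either stage were small: 1 gene was past 2-fold at 24 hpf and none at 48 hpf. The repressor gene per3 had 10.7 FPKM in foxo3b MO and 3.47 FPKM in control at 24 hpf, and 10.5 FPKM in foxo3b MO and 11.7 FPKM in control at 48 hpf, a stage difference of -1.54. The nuclear receptor gene rorca had 7.03 FPKM in foxo3b MO and 4.01 FPKM in control at 24 hpf, and 6.58 FPKM in foxo3b MO and 12.2 FPKM in control at 48 hpf. The cryptochrome gene cry2a had 66.3 FPKM in foxo3b MO and 49.1 FPKM in control at 24 hpf, and 82.7 FPKM in foxo3b MO and 132 FPKM in control at 48 hpf. In both of these foxo3b MO was the higher library at 24 hpf and the lower one at 48 hpf. The 6 cryptochrome genes numbered cry1a to cry5 together had a median of -0.95, with 5 of 6 below 0. The median of the clock list stayed below 0 under all 10 alternatives, at -0.81 to -0.35, and was nearest to 0 with a floor of 20 FPKM, which leaves fewer of its genes, and at -0.39 after centring on genes of like locus width and mean FPKM. The hour of the day at which the embryos were collected is not given in the sources used here.

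Families were also formed by symbol, as the letters before the first digit, where at least 6 genes passed. The lowest median of the 196 such stems was that of igf, at -1.18, with 7 of 7 values below 0. It joins insulin-like growth factor genes and their receptors with genes for mRNA-binding proteins named after them. Its members were named after their values were seen. The growth factor gene igf2a had 50.4 FPKM in foxo3b MO and 14.5 FPKM in control at 24 hpf, and 27.5 FPKM in foxo3b MO and 18.3 FPKM in control at 48 hpf. The receptor gene igf1ra had 10.6 FPKM in foxo3b MO and 3.59 FPKM in control at 24 hpf, and 9.74 FPKM in foxo3b MO and 11.2 FPKM in control at 48 hpf. In both, foxo3b MO was the higher library at 24 hpf. At 48 hpf it was less far above its control in igf2a and below its control in igf1ra. The stage difference was -1.18 for igf2a and -1.52 for igf1ra. The mRNA-binding protein gene igf2bp1 was the member nearest to 0, at -0.43. The igf median ran from -1.26 to -0.86 under the alternatives. The semaphorin genes, which encode guidance cues for axons and vessels, had a median of -0.81 over 12 genes, and dynein subunit genes under the stem dync one of -0.70 over 7 genes. Centring within locus width and mean FPKM brought these to -0.30 and -0.24.

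Extracellular matrix genes had a median stage difference of -0.30 over 56 members, with 5 at -1 or less and 1 at 1 or more. The share at -1 or less is near the 7.19% of all genes, and centred on genes of like locus width and mean FPKM the median was -0.13. Among the members were the laminin chain genes lamb1a, lama5 and lamc1, whose products form the basement membrane. At 24 hpf lamb1a had 80.9 FPKM in foxo3b MO and 36.1 FPKM in control, and at 48 hpf 16.8 FPKM in foxo3b MO and 17.2 FPKM in control. The stage differences were -1.18 for lamb1a, -1.11 for lama5 and -1.02 for lamc1. All 3 were at least 2-fold higher in foxo3b MO at 24 hpf, and at 48 hpf their log2 folds were -0.04, -0.09 and 0.08 in the same order. Endothelial and vascular genes, a list that joins markers of vessel cells with growth factor genes such as vegfaa, had a median of -0.37 over 21 members. The centred median was -0.14. Of the 21 values 16 were below 0 and 5 above, up to 0.92. At -1 or less were 2, vegfaa and efnb2a, also a share near that of all genes. The vessel growth factor gene vegfaa had 17.8 FPKM in foxo3b MO and 6.48 FPKM in control at 24 hpf, and 7.64 FPKM in foxo3b MO and 12.5 FPKM in control at 48 hpf, a stage difference of -1.98. The artery gene efnb2a had 37.9 FPKM in foxo3b MO and 17.2 FPKM in control at 24 hpf, and 21.2 FPKM in foxo3b MO and 25.7 FPKM in control at 48 hpf, a stage difference of -1.36.

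Chaperone and heat shock genes, which fold and repair proteins, had a median of -0.37 over 78 members, with 11 at -1 or less and 1 at 1 or more. The shares over all genes were 7.19% and 2.81%. The collagen chaperone gene zgc:171630, now called serpinh1a, had 316 FPKM in foxo3b MO and 99.1 FPKM in control at 24 hpf, and 107 FPKM in foxo3b MO and 137 FPKM in control at 48 hpf, a stage difference of -2.02. The small heat shock gene hspb9 had 34.00 FPKM in foxo3b MO and 47.7 FPKM in control at 24 hpf, and 50.3 FPKM in foxo3b MO and 164 FPKM in control at 48 hpf, high in the control at 48 hpf, with a stage difference of -1.22. The highest member was dnajc8, a J-domain gene, with 152 FPKM in foxo3b MO and 177 FPKM in control at 24 hpf, and 104 FPKM in foxo3b MO and 58.5 FPKM in control at 48 hpf, a stage difference of 1.04. The median stayed below 0 under all alternatives, at -0.38 to -0.12.

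The stage difference moved with the width of a gene's locus. Among genes alone at their locus, the shortest eighth had a median stage difference of 0.07 and the longest eighth -0.45. In the longest eighth 14.8% of genes were at -1 or less and 0.56% at 1 or more, while in the shortest 7.09% were at -1 or less and 10.3% at 1 or more. The median fold at 24 hpf was higher the wider the locus, from -0.03 in the shortest eighth to 0.40 in the longest, and that at 48 hpf lay between -0.05 and 0.04 in every eighth. Mean level moved with it too, with a median of -0.37 in the eighth of genes at the lowest FPKM and 0.12 in the eighth at the highest. The matrix list, at a median locus width of 40343 bp, lies among long genes, and the histone list, at 1312 bp, among short ones. The part of locus width, RNA integrity or library preparation in the lists was not tested beyond the centring given here.

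**Figure D3:**
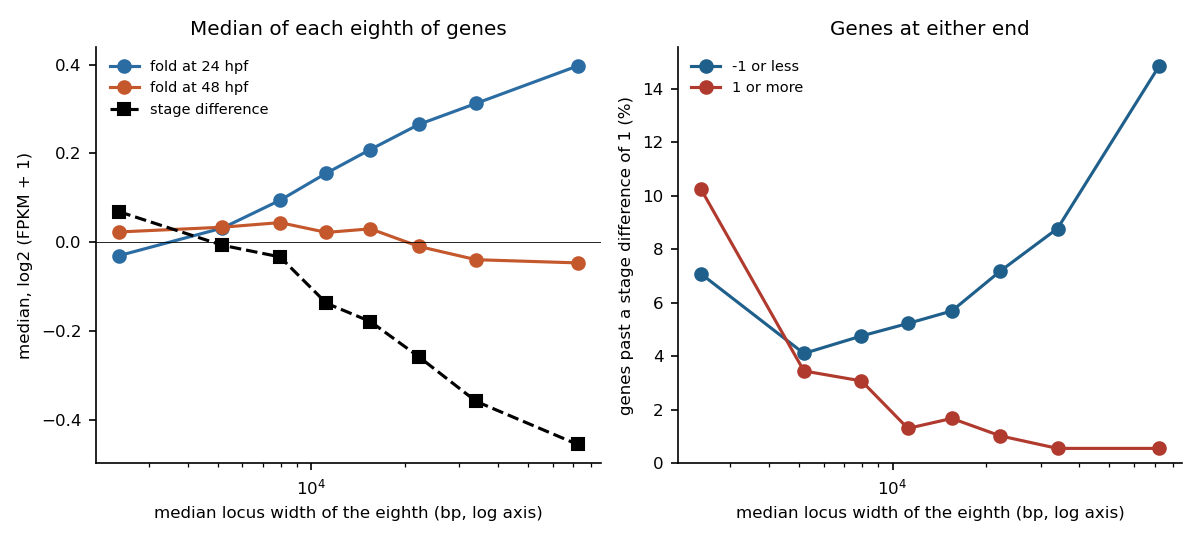
Genes alone at their locus, in 8 equal groups by locus width (median width in bp on a log axis). On the left are the median log2 folds at 24 hpf and 48 hpf and the median stage difference, which is lowest, at -0.45, in the longest group; on the right is the percentage of genes at -1 or less, which reaches 14.8, and at 1 or more, which is 10.3 in the shortest group.

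Embryonic globin, red cell membrane and heme synthesis genes had median stage differences above that of all genes. Erythroid and progenitor transcription factor genes did not, at a median of -0.22 beside -0.16 for all genes. All 8 embryonic globin genes, whose products carry oxygen before adult hemoglobin is made, were lower in foxo3b MO at 24 hpf, 7 of them at least 2-fold, and 7 of 8 were lower at 48 hpf, 5 at least 2-fold. Their median stage difference was 0.65, with 2 genes at 1 or more and none at -1 or less, and it ran from 0.44 to 0.91 under the alternatives. The highest value was that of hbbe3, on chromosome 12, 21691961 to 21693036. This gene had 1815 FPKM in foxo3b MO and 9075 FPKM in control at 24 hpf, and 2207 FPKM in foxo3b MO and 2339.8 FPKM in control at 48 hpf, so that the control at 24 hpf was the single high library. Its log2 fold was -2.32 at 24 hpf and -0.08 at 48 hpf, a stage difference of 2.24. In contrast hbae3, the most abundant of the globin genes, had 928 FPKM in foxo3b MO and 2485 FPKM in control at 24 hpf, and 3710.1 FPKM in foxo3b MO and 11506 FPKM in control at 48 hpf, a stage difference of -0.21. The gene hbbe1.1 had 359 FPKM in foxo3b MO and 1663 FPKM in control at 24 hpf, and 1564 FPKM in foxo3b MO and 5585 FPKM in control at 48 hpf, also lower in foxo3b MO at both stages, and hbbe2 had the lowest value of the family, -0.45. Loci of 4 of the 8 are shared with other genes, and near-identical copies may share reads, so single globin values are uncertain.

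Genes of the red cell membrane and of gas transport had a median stage difference of 0.44 over 14 members, with 2 at 1 or more and none at -1 or less. Of the 14, 12 were lower in foxo3b MO at 24 hpf and 6 at 48 hpf. With equal totals the list medians were above 0 at both stages, at 0.21 and 0.70, so the sign within a stage depends on the scale. On that scale the medians of all genes were 0.68 at 24 hpf and 0.64 at 48 hpf. The list thus stayed below all genes at 24 hpf and lay slightly above them at 48 hpf. The gene slc4a1a, which encodes the band 3 anion exchanger, had 9.66 FPKM in foxo3b MO and 24.1 FPKM in control at 24 hpf, and 63.4 FPKM in foxo3b MO and 63.2 FPKM in control at 48 hpf. It was thus lower in foxo3b MO at 24 hpf and level with control at 48 hpf, and its stage difference was 1.24. The skeleton gene epb41 had 5.08 FPKM in foxo3b MO and 8.66 FPKM in control at 24 hpf, and 8.32 FPKM in foxo3b MO and 5.87 FPKM in control at 48 hpf, a stage difference of 1.11. The ammonium channel gene rhag was lower in foxo3b MO mainly at 48 hpf, with 15.2 FPKM in foxo3b MO and 16.2 FPKM in control at 24 hpf, and 77.9 FPKM in foxo3b MO and 139 FPKM in control at 48 hpf, a stage difference of -0.73. The most abundant member, cahz, had a stage difference of -0.24. Of the 14 values, 10 were above 0 and 4 below.

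Heme synthesis genes had a median of 0.25 over 14 members. The mitochondrial porphyrin carrier gene tmem14c had 93.5 FPKM in foxo3b MO and 321 FPKM in control at 24 hpf, and 114 FPKM in foxo3b MO and 159 FPKM in control at 48 hpf, a stage difference of 1.29. The erythroid gene alas2, for the first enzyme of the pathway, was lower in foxo3b MO at both stages, with 15.2 FPKM in foxo3b MO and 36.8 FPKM in control at 24 hpf, and 33.7 FPKM in foxo3b MO and 56.0 FPKM in control at 48 hpf, and had a stage difference of 0.51. The mitochondrial glycine carrier gene slc25a38b was the lowest of the list, at -1.25. The pyruvate kinase gene of liver and red cells, pklr, had one of the highest stage differences outside the list, 3.04, with 16.6 FPKM in foxo3b MO and 78.2 FPKM in control at 24 hpf, and 30.7 FPKM in foxo3b MO and 16.4 FPKM in control at 48 hpf. Transcription factor genes of red cells and progenitors had values on both sides of 0, with 5 of 15 members above it and 10 below. The members ldb1a and ldb1b, the latter the most abundant of the list, had stage differences of -0.97 and -0.78. The gene gata1a had 6.30 FPKM in foxo3b MO and 8.23 FPKM in control at 24 hpf, and 4.33 FPKM in foxo3b MO and 2.49 FPKM in control at 48 hpf, a stage difference of 0.95. The gene tal1 had 14.6 FPKM in foxo3b MO and 15.5 FPKM in control at 24 hpf, and 10.4 FPKM in foxo3b MO and 13.1 FPKM in control at 48 hpf, a stage difference of -0.23.

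**Figure D4:**
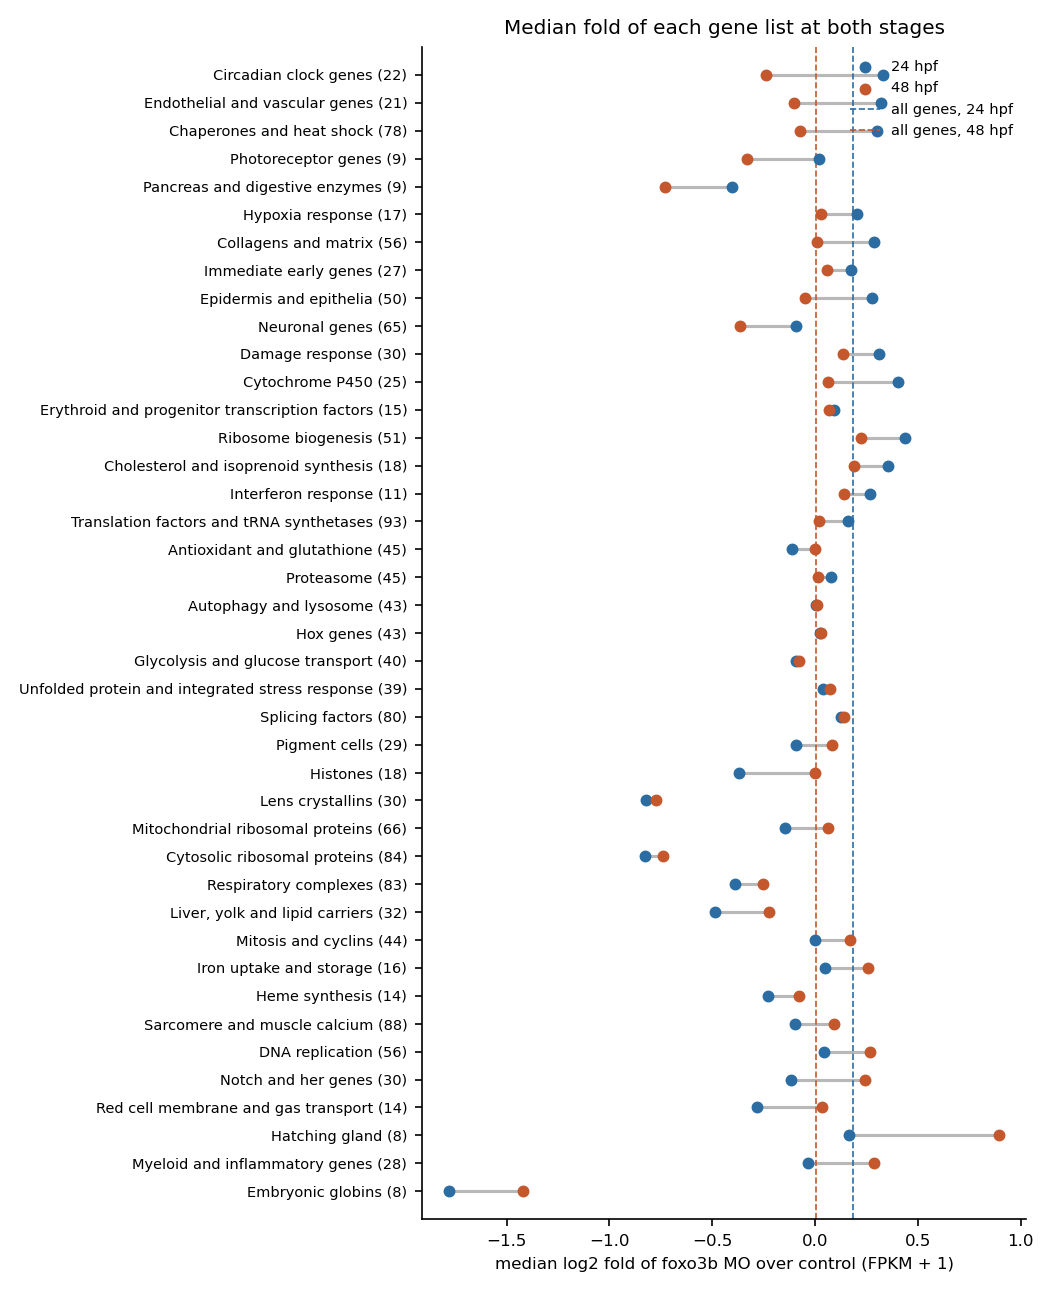
Median log2 fold of foxo3b MO over control at 24 hpf (blue) and 48 hpf (orange) for 41 gene lists, sorted by median stage difference with the lowest at the top and the number of genes in brackets; dashed lines are the medians of all 9302 genes. Clock genes lie at the top with the 48 hpf point left of the 24 hpf point, and embryonic globins at the bottom with both points far left of 0.

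Cytosolic ribosomal protein genes, which build the translating ribosome, were lower in foxo3b MO at both stages, with median folds of -0.83 at 24 hpf and -0.74 at 48 hpf over 84 genes. At 24 hpf 37 were at least 2-fold lower and at 48 hpf 17 were. The sign of both medians held under all 10 alternatives, and with equal totals they were -0.29 at 24 hpf and -0.06 at 48 hpf. The median stage difference was 0.20, with 64 of the 84 above the median of all genes, 5 at 1 or more and 3 at -1 or less, and centred on genes of like locus width and mean FPKM it was 0.09. The lowest was rpl38, at -2.73, which was higher in foxo3b MO at 24 hpf and lower at 48 hpf, with 43751 FPKM in foxo3b MO and 19568 FPKM in control at 24 hpf, and 17137 FPKM in foxo3b MO and 50718 FPKM in control at 48 hpf. The most abundant member, zgc:77235 (rpl27a), had the next lowest value, -2.49. It had 80646 FPKM in foxo3b MO and 93455 FPKM in control at 24 hpf. At 48 hpf it had 47268 FPKM in foxo3b MO and 307548 FPKM in control, the single high library. The gene rpl37 had 18443 FPKM in foxo3b MO and 23684 FPKM in control at 24 hpf, and 5191 FPKM in foxo3b MO and 31661 FPKM in control at 48 hpf, lowest in foxo3b MO at 48 hpf, with a stage difference of -2.25. Ribosomal protein genes have many near-identical copies, and their single values are uncertain.

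Respiratory chain and ATP synthase genes had a median stage difference of 0.21 over 83 members, with 4 at 1 or more and 2 at -1 or less, and mitochondrial ribosomal proteins one of 0.20 over 66, with none past 1 in either direction. At 24 hpf 19 respiratory genes stood 2-fold or more below control in foxo3b MO and at 48 hpf 4 did. Centred on genes of like locus width and mean FPKM, the median stage difference of the respiratory list was 0.05. With equal totals the medians of this list at the 2 stages were above 0, at 0.15 and 0.42, so its sign within a stage depends on the scale. On that scale the medians of all genes were 0.68 at 24 hpf and 0.64 at 48 hpf. The list thus stayed below all genes at both stages. The cytochrome oxidase subunit gene cox6a2 had the highest stage difference, 2.05, with 1.01 FPKM in foxo3b MO and 5.43 FPKM in control at 24 hpf, and 13.7 FPKM in foxo3b MO and 10.4 FPKM in control at 48 hpf. The complex I gene ndufa13 had a stage difference of -1.85, with 5143 FPKM in foxo3b MO and 1831 FPKM in control at 24 hpf, and 4438 FPKM in foxo3b MO and 5698 FPKM in control at 48 hpf, at a locus shared by 7 genes.

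DNA replication genes, among them the helicase, polymerase and nucleotide supply genes of S phase, had a median stage difference of 0.25 over 56 members. Of these 50 lay above the median of all genes, 5 reached 1 and none reached -1, beside 2.81% and 7.19% of all genes. At 24 hpf 31 had a fold above 0 and at 48 hpf 47 had. The gene dhfr, for the enzyme that renews folate for thymidylate synthesis, had 41.6 FPKM in foxo3b MO and 62.5 FPKM in control at 24 hpf, and 76.3 FPKM in foxo3b MO and 45.3 FPKM in control at 48 hpf, a stage difference of 1.32. The polymerase subunit gene pole2 had 41.8 FPKM in foxo3b MO and 41.9 FPKM in control at 24 hpf, and 21.5 FPKM in foxo3b MO and 9.32 FPKM in control at 48 hpf, a stage difference of 1.12. The ribonucleotide reductase gene rrm2 had a stage difference of 1.39, at a locus shared by 24 genes. The licensing factor gene mcm2 differed little, at 194 FPKM in foxo3b MO and 163 FPKM in control at 24 hpf, and 64.0 FPKM in foxo3b MO and 56.9 FPKM in control at 48 hpf. Genes of mitosis and cyclins had a median of 0.23 over 44 members, with 36 above the median of all genes. Medians of both lists stayed above 0 under all alternatives.

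The highest stage differences among list members were those of a pair of histone genes, zgc:173652 and zgc:195633. The H4 gene hist1h4l, also high, had 5.94 FPKM in foxo3b MO and 26.0 FPKM in control at 24 hpf, and 52.3 FPKM in foxo3b MO and 15.2 FPKM in control at 48 hpf, a stage difference of 3.68. The H2A gene zgc:173652, now called hist1h2a3, had 2.53 FPKM in foxo3b MO and 11.9 FPKM in control at 24 hpf, and 67.0 FPKM in foxo3b MO and 3.20 FPKM in control at 48 hpf, a stage difference of 5.89. The gene zgc:195633, now called hist1h2a11, had 0.514 FPKM in foxo3b MO and 2.21 FPKM in control at 24 hpf, and 41.6 FPKM in foxo3b MO and 1.06 FPKM in control at 48 hpf, a stage difference of 5.45. In all 3, foxo3b MO was the lower library at 24 hpf and the higher at 48 hpf. Genes of variant histones, which are made outside S phase as well, were spread over both sides of 0. The replacement histone gene h3f3a, the most abundant of the list, had 2805 FPKM in foxo3b MO and 4023 FPKM in control at 24 hpf, and 2377 FPKM in foxo3b MO and 1757 FPKM in control at 48 hpf, a stage difference of 0.96 in the same direction as these 3. The H2A.Z gene h2afz had 291 FPKM in foxo3b MO and 429.6 FPKM in control at 24 hpf, and 468 FPKM in foxo3b MO and 609.7 FPKM in control at 48 hpf, a stage difference of 0.18. The macroH2A gene h2afy had the lowest value of the list, -1.13. The list of 18 had a median of 0.19, with 4 at 1 or more and 1 at -1 or less. Histone genes have near-identical copies and their single values are uncertain.

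Other RNAs with high stage differences were rpph1, the RNA of RNase P, and rn7sk, the 7SK RNA that restrains elongation by RNA polymerase II. The RNA rpph1 had 13.7 FPKM in foxo3b MO and 21.0 FPKM in control at 24 hpf, and 1675 FPKM in foxo3b MO and 127 FPKM in control at 48 hpf, a stage difference of 4.29. The RNA rn7sk had 125 FPKM in foxo3b MO and 39.1 FPKM in control at 24 hpf, and 13681 FPKM in foxo3b MO and 667 FPKM in control at 48 hpf, higher in foxo3b MO at both stages, with a stage difference of 2.71. Like the mRNAs of replication histones, these RNAs carry no poly(A) tail, and both were highest in the foxo3b MO library at 48 hpf. How RNA was selected for the libraries is not given beyond total RNA, and the part of that step was not tested.

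Genes of myeloid cells and inflammation had a median stage difference of 0.59 over 28 members, with 8 at 1 or more and 1 at -1 or less, beside 2.81% and 7.19% of all genes. The matrix protease gene mmp9, on chromosome 8, 25134467 to 25148890, had 8.65 FPKM in foxo3b MO and 14.4 FPKM in control at 24 hpf, and 44.3 FPKM in foxo3b MO and 5.86 FPKM in control at 48 hpf, a stage difference of 3.40. Its relative mmp13a had 9.24 FPKM in foxo3b MO and 6.33 FPKM in control at 24 hpf, and 27.3 FPKM in foxo3b MO and 5.37 FPKM in control at 48 hpf, a stage difference of 1.67. The transcription factor gene cebpb had 43.7 FPKM in foxo3b MO and 63.3 FPKM in control at 24 hpf, and 45.8 FPKM in foxo3b MO and 21.8 FPKM in control at 48 hpf, a stage difference of 1.56. The cathepsin gene ctssb.1 had 342 FPKM in foxo3b MO and 192 FPKM in control at 24 hpf, and 115 FPKM in foxo3b MO and 21.1 FPKM in control at 48 hpf, a stage difference of 1.56. In each of these 4 genes foxo3b MO at 48 hpf was more than 2-fold above its control. The neutrophil and macrophage lysozyme gene lyz, a defining marker, was lower in foxo3b MO at both stages, with 5.75 FPKM in foxo3b MO and 33.3 FPKM in control at 24 hpf, and 214 FPKM in foxo3b MO and 382 FPKM in control at 48 hpf, and its stage difference of 1.51 went with a larger shortfall at 24 hpf. The myeloperoxidase gene mpx had 5.50 FPKM in foxo3b MO and 5.89 FPKM in control at 24 hpf, and 34.1 FPKM in foxo3b MO and 23.1 FPKM in control at 48 hpf. The lowest member was LOC100151049, now called laptm5, at -3.32 with a single high library, the control at 48 hpf. Summed over the 28 genes, the list stood at 1881 FPKM in foxo3b MO and 1593 FPKM in control at 24 hpf, and at 2878 FPKM in foxo3b MO and 2998 FPKM in control at 48 hpf. The median was 0.18 with a floor of 20 FPKM. Outside the list, the chemokine gene cxcl-c1c had 7.01 FPKM in foxo3b MO and 8.82 FPKM in control at 24 hpf, and 20.9 FPKM in foxo3b MO and 6.06 FPKM in control at 48 hpf, a stage difference of 1.93. The gene irg1l, related to the itaconate enzyme gene of macrophages, had 146 FPKM in foxo3b MO and 133 FPKM in control at 24 hpf, and 30.9 FPKM in foxo3b MO and 6.59 FPKM in control at 48 hpf, a stage difference of 1.94.

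Hatching gland genes, whose proteases digest the egg envelope, are markers of cells other than red cells. They had a median stage difference of 0.55 over 8 members, with 3 at 1 or more. The protease gene he1b had 4627 FPKM in foxo3b MO and 4864 FPKM in control at 24 hpf, and 2989.7 FPKM in foxo3b MO and 1334 FPKM in control at 48 hpf, a stage difference of 1.24. The protease gene he2 had 215 FPKM in foxo3b MO and 205 FPKM in control at 24 hpf, and 5.30 FPKM in foxo3b MO and 1.22 FPKM in control at 48 hpf. The level of he2 was far lower at 48 hpf in both libraries, and its stage difference was 1.44. Summed over the 8 genes, the list stood at 9703 FPKM in foxo3b MO and 8723 FPKM in control at 24 hpf, and at 6540.5 FPKM in foxo3b MO and 3372 FPKM in control at 48 hpf. The part of such cells in the other lists was not tested.

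Genes of the Notch pathway had a median stage difference of 0.40 over 30 members, with 6 at 1 or more and none at -1 or less. The ligand genes jag1b and jag2 and the receptor genes notch1b, notch2 and notch3 had stage differences between -0.85 and -0.47. The receptor gene notch1a and the ligand genes dla, dlb, dlc and dld lay between -0.05 and 0.47. The hairy-related repressor genes, only some of which Notch switches on, were at the other end. The stem her had the highest median of the 196, 0.92, with 12 of 12 values above 0. This median ran from 0.73 to 1.16 under the alternatives. The gene her3 had 13.4 FPKM in foxo3b MO and 23.03 FPKM in control at 24 hpf, and 7.02 FPKM in foxo3b MO and 3.50 FPKM in control at 48 hpf, a stage difference of 1.57. The gene her8.2 had 5.82 FPKM in foxo3b MO and 13.0 FPKM in control at 24 hpf, and 46.1 FPKM in foxo3b MO and 33.8 FPKM in control at 48 hpf, a stage difference of 1.47. In both, foxo3b MO was lower than control at 24 hpf and higher at 48 hpf. The her genes are short, at a median locus of 1784 bp.

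Parvalbumin genes, which encode calcium buffers of fast muscle and other cells, also stood among the 6 highest stems, with a median of 0.58 and 6 of 7 values above 0. The gene pvalb1 had 58.9 FPKM in foxo3b MO and 226 FPKM in control at 24 hpf, and 4309.7 FPKM in foxo3b MO and 4529 FPKM in control at 48 hpf, a stage difference of 1.85. It was lower in foxo3b MO at 24 hpf and close to control at 48 hpf. The muscle list as a whole had a median of 0.25 over 88 members, with 8 at 1 or more and 6 at -1 or less. Over all genes 2.81% were at 1 or more and 7.19% at -1 or less, so the muscle share at -1 or less is near that of all genes. Lens crystallin genes, another list from tissue other than blood, had 30 of 30 folds below 0 at 24 hpf and 27 of 30 at 48 hpf on the deposited scale. Of the 30, 12 lie at loci shared with other genes, several held less than 1 FPKM in both libraries at 24 hpf and passed the floor through 48 hpf, and 9 further members were left out for a value of 0. Their median stage difference was 0.19 and its sign depended on the setting, from -0.18 to 0.66.

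**Figure D5:**
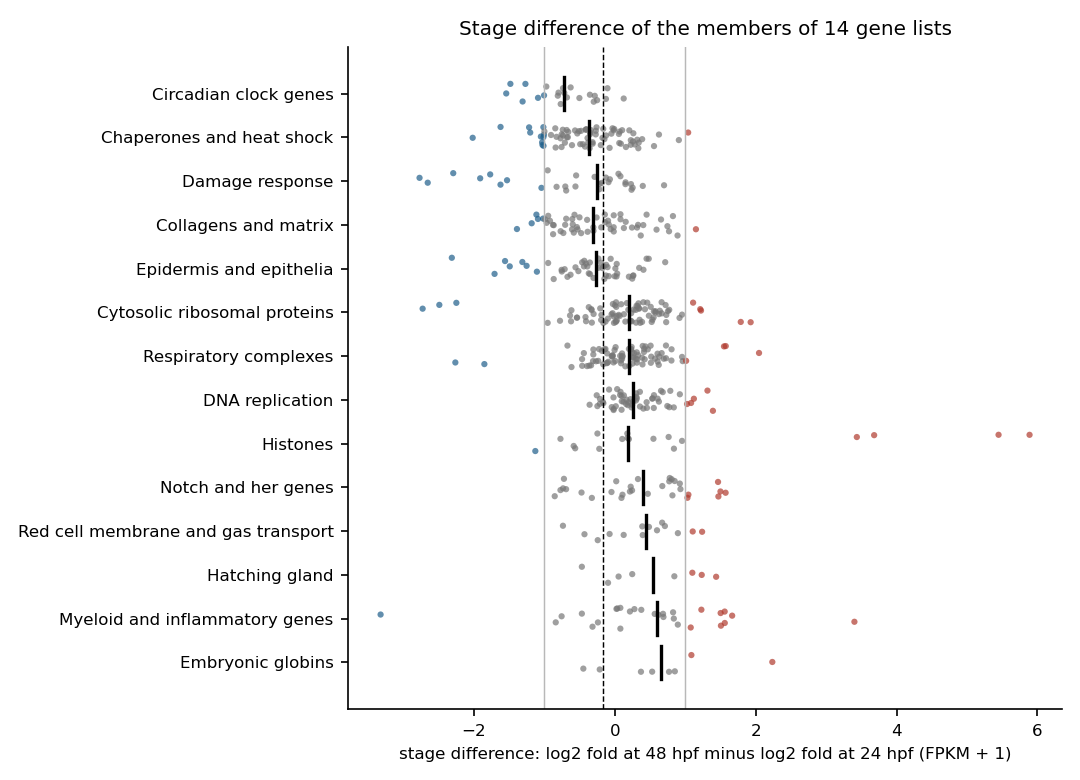
Stage difference of each measured member of 14 gene lists (points, spread vertically at random), with the list median (black bar), the median of all genes (dashed line) and the limits of -1 and 1 (grey lines). The 8 damage response genes at -1 or less and the 4 histone genes at 1 or more stand away from the rest of their lists, whereas the clock list is shifted as a whole.

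Some lists had medians near 0, against -0.16 for all genes. Hox genes, which pattern the body axis, had a median stage difference of -0.01 over 43 members, with 1 past 1 in size. Proteasome subunits had -0.04 over 45 members, with none past 1 in either direction, and genes of the unfolded protein response 0.00 over 39. With 1 library per group, medians near 0 do not show that the groups were alike.

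Among lists from tissues other than blood, epidermal genes had a median of -0.27 over 50 members with 7 at -1 or less, and neuronal genes -0.26 over 65 with 7 at -1 or less and 5 at 1 or more. Over all genes 7.19% were at -1 or less and 2.81% at 1 or more. Photoreceptor genes had -0.35 over 9 and pancreas genes -0.32 over 9, while pigment cell genes had 0.17 over 29 with 4 at 1 or more. Liver and yolk genes had 0.21 over 32, with 20 values above 0 and 12 below. Their most abundant member, fabp1b.1, went the other way, at -1.77. Summed, the liver and yolk list stood at 108731 FPKM in foxo3b MO and 152344 FPKM in control at 24 hpf. At 48 hpf the sums were 63710 FPKM in foxo3b MO and 219915 FPKM in control. Most of each sum was fabp1b.1 alone, with 88013 FPKM in foxo3b MO and 122922 FPKM in control at 24 hpf. At 48 hpf that gene had 39376 FPKM in foxo3b MO and 187400 FPKM in control, so the sums describe it rather than the list. Of the stress and signal lists, hypoxia genes had a median of -0.32 over 17, immediate early genes -0.27 over 27 and interferon genes -0.10 over 11. Cytochrome P450 genes had -0.24 over 25, antioxidant genes -0.05 over 45 and autophagy genes -0.02 over 43. Of the lists for growth and metabolism, ribosome biogenesis had -0.17 over 51, cholesterol synthesis -0.16 over 18, translation factors -0.05 over 93, splicing factors 0.07 over 80 and glycolysis -0.004 over 40. Iron genes had 0.25 over 16 and erythroid transcription factors -0.22 over 15. These medians lie within 0.5 of that of all genes, and the sign of several depends on the scale. Too few FOXO genes (3) and thrombocyte markers (1) were measured for a median. Of the remaining stems at the ends, the LIM-domain binding genes ldb had a median of -0.88 and the fibroblast growth factor genes fgf one of -0.74. At the high end the stems rbp, aqp, tnnt and myl had 0.65, 0.58, 0.48 and 0.34, in this order; they hold genes of retinol-binding proteins, water channels, troponin T and myosin light chains.

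Equal effects were defined as a stage difference within 0.25 of 0 together with a fold past 2-fold in the same direction at both stages. There were 18 such genes, 13 lower and 5 higher in foxo3b MO. Among the lower ones were 4 ribosomal protein genes. The gene rpl22l1 had 903 FPKM in foxo3b MO and 3257 FPKM in control at 24 hpf, and 211 FPKM in foxo3b MO and 775 FPKM in control at 48 hpf, and the ratios within each stage were almost the same, with log2 folds of -1.85 and -1.87. The gene rps21 had 18971 FPKM in foxo3b MO and 51093 FPKM in control at 24 hpf, and 16575 FPKM in foxo3b MO and 43949 FPKM in control at 48 hpf. The retinol-binding protein gene rbp2b had 19.8 FPKM in foxo3b MO and 65.6 FPKM in control at 24 hpf, and 90.2 FPKM in foxo3b MO and 279 FPKM in control at 48 hpf. The brain fatty acid binding protein gene fabp7a had 118 FPKM in foxo3b MO and 306 FPKM in control at 24 hpf, and 999 FPKM in foxo3b MO and 2457 FPKM in control at 48 hpf. Both were higher at 48 hpf in either group, while the ratio of foxo3b MO to control stayed much the same. The anaphase promoting complex gene anapc11 had 128 FPKM in foxo3b MO and 325 FPKM in control at 24 hpf, and 51.6 FPKM in foxo3b MO and 136 FPKM in control at 48 hpf. The embryonic globin gene hbae3, described above, also had equal lower folds.

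The largest equal effect upward was that of isg15, an interferon-induced gene for a ubiquitin-like protein, on chromosome 5, 21895359 to 21896614. It had 25.2 FPKM in foxo3b MO and 1.28 FPKM in control at 24 hpf, and 21.6 FPKM in foxo3b MO and 0.997 FPKM in control at 48 hpf, with log2 folds of 3.52 at 24 hpf and 3.50 at 48 hpf and a stage difference of -0.02. Both foxo3b MO libraries were above 20 FPKM and both controls near 1 FPKM. Of the 11 interferon response genes, 8 had folds above 0 at 24 hpf and 7 at 48 hpf. The list had median folds of 0.27 at 24 hpf and 0.14 at 48 hpf, beside 0.18 and 0.01 for all genes. Its lowest member, si:ch1073-463l14.2, now called ifitm5, had a stage difference of -2.08. At 24 hpf that gene had only 0.562 FPKM in foxo3b MO and 0.439 FPKM in control. At 48 hpf it had 5.28 FPKM in foxo3b MO and 23.5 FPKM in control, and it passed the floor of 5 FPKM through that stage. The gene gbp1, for a guanylate-binding protein, had 16.7 FPKM in foxo3b MO and 11.3 FPKM in control at 24 hpf, and 17.8 FPKM in foxo3b MO and 5.09 FPKM in control at 48 hpf, a stage difference of 1.09. The gene ifitm1 had 3.96 FPKM in foxo3b MO and 6.09 FPKM in control at 24 hpf, and 8.58 FPKM in foxo3b MO and 2.45 FPKM in control at 48 hpf, a stage difference of 1.99. The gene stat1a had 4.92 FPKM in foxo3b MO and 3.49 FPKM in control at 24 hpf, and 7.14 FPKM in foxo3b MO and 9.81 FPKM in control at 48 hpf, a stage difference of -0.81. The RNA-binding gene lin28a, which holds back let-7 maturation, had 38.1 FPKM in foxo3b MO and 14.04 FPKM in control at 24 hpf, and 11.8 FPKM in foxo3b MO and 4.03 FPKM in control at 48 hpf. The nucleolar gene nolc1 had 66.3 FPKM in foxo3b MO and 24.96 FPKM in control at 24 hpf, and 15.5 FPKM in foxo3b MO and 6.31 FPKM in control at 48 hpf. Both were lower at 48 hpf than at 24 hpf in either group and higher in foxo3b MO at both stages.

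Without the limit on the stage difference, 42 genes (0.45% of all) were at least 2-fold lower at both stages. Among them were 11 of 84 ribosomal protein, 5 of 8 embryonic globin, 4 of 30 lens crystallin and 3 of 83 respiratory genes. The genes at least 2-fold higher at both stages numbered 14 (0.15%). With equal totals these counts were 6 lower and 437 higher. That scale moved the median fold of all genes to 0.68 at 24 hpf and 0.64 at 48 hpf. The 14 included ccng1 of the damage list and mcoln1, which encodes a lysosomal cation channel, with 114 FPKM in foxo3b MO and 8.01 FPKM in control at 24 hpf, and 117 FPKM in foxo3b MO and 24.98 FPKM in control at 48 hpf. Its stage difference was -1.49.

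At 24 hpf alone 260 genes (2.795% of all) were at least 2-fold higher in foxo3b MO and 145 (1.559%) at least 2-fold lower. At 48 hpf alone 139 (1.494%) were higher and 186 (1.9996%) lower. Counts of list members in each class are to be read against these shares of all genes. The 145 lower at 24 hpf alone included 26 of 84 ribosomal protein, 16 of 83 respiratory, 9 of 88 muscle and 7 of 30 lens crystallin genes. The 260 higher at 24 hpf alone included 8 of 30 damage response and 6 of 56 matrix genes. The 139 higher at 48 hpf alone included 5 of 28 myeloid and 4 of 8 hatching gland genes. The 186 lower at 48 hpf alone included 7 of 30 lens crystallin, 6 of 65 neuronal, 5 of 84 ribosomal protein and 3 of 93 translation genes.

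Opposite sides were taken by 23 genes, 12 higher in foxo3b MO at 24 hpf and lower at 48 hpf, and 11 the other way. The list members among them were 4 histone genes, 1 ribosomal protein gene and the hepcidin gene hamp2, for the hormone that limits iron release. It had 0.209 FPKM in foxo3b MO and 2.44 FPKM in control at 24 hpf, and 32.5 FPKM in foxo3b MO and 3.91 FPKM in control at 48 hpf, a stage difference of 4.28 with a single high library, at a locus shared with another gene. The ETS transcription factor gene ets1a, annotated on an unplaced scaffold, had 518 FPKM in foxo3b MO and 194 FPKM in control at 24 hpf, and 124 FPKM in foxo3b MO and 377 FPKM in control at 48 hpf, a stage difference of -3.01. The LDL receptor adaptor gene ldlrap1b had 101 FPKM in foxo3b MO and 37.7 FPKM in control at 24 hpf, and 65.7 FPKM in foxo3b MO and 138 FPKM in control at 48 hpf, a stage difference of -2.45.

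Near the floor, the glucuronosyltransferase gene ugt2a5 was left out at a mean just under 5 FPKM, with a stage difference of -0.85, and the Wnt ligand gene wnt11 was kept just above it, at 0.76. At 5 to 7.33 FPKM, the lowest eighth of genes by mean, 21 were at 1 or more and 152 at -1 or less.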

How the data were processed

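Per the labels, total RNA of Gata1+ cells was extracted with TRIzol and made into Illumina libraries, 1 per group. TopHat, Cufflinks and the Zv9 assembly are named in the submitters' processing notes; for versions, options, annotation, strand of counting and RNA selection, nothing is stated (not given in the sources used here). FPKM values per gene, with loci, were deposited by the authors in 1 file per library. They were joined on the gene name and used as deposited. FPKM carries no depth, and the steps between low values gave several possible ratios of depth between libraries, so no relative depth is given.

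Log2 folds are log2 of (FPKM + 1) in foxo3b MO over (FPKM + 1) in control, which understates the change of low genes. The stage difference is the fold at 48 hpf minus that at 24 hpf. Thresholds were 1 log2 unit for the stage difference and 2-fold at a stage. No test was possible with 1 library per group. The calculation was tested on simulated data. Python 3.11.15, numpy 2.4.6, pandas 2.3.3 and matplotlib 3.10.9 were used. Current symbols, found for 14134 genes, were taken from RefSeq and used for names only. Of the 9302 genes, 733 share a locus with another gene in the files, and their values are uncertain.

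The members, the 43 gene lists and the naming rule were chosen with earlier results of these data known. The rule took, at a mean of 10 FPKM or more and with a plain symbol, the 14 highest and 14 lowest stage differences, up to 6 genes with equal effects in each direction and genes past 2-fold in opposite directions. It also took 3 members and the most abundant member of each list, foxo3b, foxo3a, gata1a, tal1, klf1, alas2, slc4a1a and the embryonic globins. Of the genes taken by it, 1 is not reported here. Plain symbols exclude clone, database and predicted names; the prefixes MGC and sc: were added to these after values were seen. The genes mdm2, gadd45aa, sesn3, ddb2, ccng2, dnajc8, h2afz, h2afy, zgc:113983, lama5, lamc1, cebpb, ctssb.1, lyz, mpx, mcm2, rhag, stat1a, the Notch receptors and ligands, igf genes and wnt11 were chosen after their values were seen. A few members that match a list by symbol but not by role (cap1, col4a3bp, col4a3bpa, fam192a, psmc3ip, cox4nb, acn9, atp5s, hars2, n6amt2, fam86a, eif2c3b and eif2c4) were removed after the data were seen. Lists were described from 4 measured genes, which left 41, and symbol stems from 6. Alternatives were pseudocounts of 0.1 and 5 FPKM, floors of 1 and 20 FPKM, keeping genes listed at 0, scaling by the median of gene ratios, scaling to equal totals with and without ribosomal protein and globin genes, leaving out shared loci, and centring both folds on genes of like locus width (10 groups) and mean FPKM (5 groups).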

Additional observations from a re-analysis of the deposited data

Results flagged for a closer look

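Genes past 2-fold on opposite sides at the 2 stages, with 1 library per group, are given here because foxo3b MO lay on one side of control at 24 hpf and on the other at 48 hpf; none of these differences was tested. There were 23, 12 higher at 24 hpf and 11 lower at that stage, and the 11 that the naming rule takes are named here. Higher in foxo3b MO at 24 hpf and lower at 48 hpf were mkxb, with a stage difference of -8.79, fgf2 with -4.45, lsamp with -4.01, ets1a with -3.01, rpl38 with -2.73 and ldlrap1b with -2.45. Lower at 24 hpf and higher at 48 hpf were the histone genes zgc:173652 with a stage difference of 5.89, zgc:195633 with 5.45 and hist1h4l with 3.68, the hepcidin gene hamp2 with 4.28, and mustn1 with 2.27. The histone gene zgc:113983 was also lower at 24 hpf and higher at 48 hpf. The loci of fgf2, hamp2 and mustn1 are shared with other genes.

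Outside the 9302 genes, 3 genes with a plain symbol were listed at 0 in a control and above 20 FPKM in foxo3b MO at the same stage, a limit chosen after the values were seen. The cell death gene pmaip1 was listed at 285.1 FPKM in foxo3b MO of the earlier stage and at 0 in the other 3 libraries. The U11 spliceosomal RNA rnu11 likewise had a value, 305.4 FPKM, only in foxo3b MO of the earlier stage. The T cell receptor gene cd247 was listed at 57.24 FPKM in foxo3b MO and 0 in control at 24 hpf, and at 0 in foxo3b MO and 147 FPKM in control at 48 hpf, at a locus shared by 31 genes. A value of 0 in such files can be a failed estimate, and no fold is given against it.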

How the results depend on the processing

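No paired analysis was possible because each group has 1 library and the labels carry no shared replicate numbers, and for the same reason no replicate could be left out. Of the 41 lists, 33 stayed on their side of the median of all genes in all 10 alternatives and 31 kept the sign of their median stage difference under the 3 scalings. Those that did not keep it were the lists of antioxidant, autophagy, cholesterol, erythroid transcription factor, glycolysis, Hox, interferon, proteasome, ribosome biogenesis and translation factor genes. FPKM without counts or replicates limits every value above; causes of the shifts below were not tested.

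A pseudocount of 0.1 FPKM gave 30 genes at least 2-fold higher at both stages, 40 on opposite sides and a lens median of 0.66. A pseudocount of 5 FPKM gave 168 genes at 1 or more, 294 at -1 or less, 6 higher at both stages, 15 on opposite sides, 195 past 2-fold at 24 hpf alone and 186 at 48 hpf alone. With it the median stage difference was 0.46 for myeloid and for hatching gland genes, -0.48 for sema, -0.49 for fgf, -0.46 for dync, 0.50 for aqp and 0.44 for pvalb. A floor of 1 FPKM gave 1020 genes at -1 or less and 523 past 2-fold at 48 hpf alone, with medians of 0.34 for myeloid and -0.82 for photoreceptor genes, -0.25 for fgf, 0.34 for rbp and, reversed, -0.19 for aqp. A floor of 20 FPKM leaves fewer genes: 154 at 1 or more, 174 at -1 or less, 8 higher at both stages, 191 past 2-fold at 24 hpf alone and 137 at 48 hpf alone. Its medians were 0.51 for heme, -0.53 for erythroid transcription factor, 0.18 for myeloid, -0.85 for pancreas, -0.51 for hypoxia and -0.35 for clock genes and -0.34 for ldb.

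Median-ratio scaling gave 508 genes at 1 or more and 369 at -1 or less, with medians of 0.69 for red cell membrane, 0.50 for DNA replication, 0.50 for muscle and 0.65 for Notch genes, -0.48 for dync, 0.59 for myl and 0.74 for tnnt. Equal totals moved the median fold of all genes to 0.68 at 24 hpf and 0.64 at 48 hpf. They gave 437 genes higher and 6 lower at both stages, 1534 past 2-fold at 24 hpf alone and 1292 at 48 hpf alone. The median stage differences were then 0.59 for red cell membrane, 0.62 for lens and 0.54 for Notch genes and 0.61 for tnnt. Without ribosomal protein and globin genes in the totals there were 406 genes at 1 or more, 431 at -1 or less, 58 higher and 19 lower at both stages and 554 past 2-fold at 48 hpf alone, with medians of 0.62 for red cell membrane, 0.52 for lens and 0.57 for Notch genes, 0.51 for myl and 0.65 for tnnt. Leaving out shared loci gave medians of 0.44 for globin, 0.47 for myeloid and 0.51 for lens genes. Centring gave 344 genes at -1 or less and 264 past 2-fold at 24 hpf alone, with medians of 0.66 for red cell membrane, 0.48 for hatching gland and -0.39 for clock genes, -0.30 for sema, -0.23 for fgf, -0.24 for dync and 0.48 for rbp.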
